A study of Mus musculus with 5 samples.

Results

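The genes described here are the Snail, Zeb and Twist transcription factors of epithelial-mesenchymal transition, with 3 of their common readouts. They were followed in the mouse embryonal carcinoma line F9, whose cells turn towards extra-embryonic endoderm under retinoic acid. All probes of an Illumina expression array whose annotated symbol is Snai1, Snai2, Snai3, Zeb1, Zeb2, Twist1, Twist2, Vim, Fn1 or Esrp1 were taken. This gave 14 probes for 10 genes, 7 transition factors and 3 readouts, of 24613 probes on the array. The study compared 2 arrays of control cells with 3 arrays of cells knocked down for both Sox7 and Sox17, a pair of related endoderm transcription factors. Every sample, controls included, was F9 cells labelled as treated with retinoic acid. The sources used here give neither the dose and time of treatment nor the means of knockdown, and they do not say what the control cells received. Nothing in the labels says that the arrays came from separate cultures, so every p-value rests on a spread between arrays that may be technical only.

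Snail and Zeb proteins are zinc finger factors and Twist proteins are basic helix-loop-helix (bHLH) factors. They bind short DNA elements called E-boxes and are best known for repressing E-cadherin and other epithelial genes while cells become mesenchymal. In the mouse embryo, parietal endoderm arises from primitive endoderm through such a transition, with Snai1 and the intermediate filament gene Vim among its known markers, and F9 cells are a classic model of that step. Fn1 encodes the matrix protein fibronectin, and Esrp1 encodes a splicing regulator of epithelial cells.

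Both targeted transcripts were lower on every knockdown array, with 16.5% of the control level left for Sox17 and 37.8% for Sox7 on the log2(intensity + 16) scale. All 7 probed markers of F9 embryonal carcinoma cells were above noise on every array. Of these, 2 rose and 1 fell by limma at an adjusted p under 0.05, where 17.0% of all 9685 tested genes were called. The rise of Nanog was not called whichever knockdown array was left out. The summed intensity of these markers was 18124 to 20021 on the control arrays and 22958 to 25709 on the knockdown arrays. These sums did not overlap, and neither did the groups at 50.1% of all single tested probes. All 11 markers of extra-embryonic endoderm fell (11 of 11 called), but Lama1 was not called without knockdown replicate 2 or knockdown replicate 3. The summed intensity of the endoderm markers ranged from 52757 to 53783 on the control arrays and from 12267 to 14314 on the knockdown arrays. In such bulk RNA, fewer cells of a type and less RNA per cell cannot be told apart. The part of these shifts in the results below was not tested.

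Intensities are the deposited normalized values. The noise threshold, an intensity of 20.1 to 20.2, is the 90% quantile of each array's mirrored values below 0. A probe was tested if at least 2 of the 5 arrays exceeded the threshold. Each difference is knockdown minus control in log2(intensity + 16), a scale on which dim probes change less than their true fold. Of the 14 member probes 13 were tested, and 4 of these were called, 2 higher and 2 lower, where 15.9% of all 13624 tested probes were called (8.38% higher and 7.51% lower). The groups did not overlap at 10 of the 13 probes, beside 50.1% of all tested probes. The median difference was 0.43 over the 13 probes and 0.0050 over all tested probes. Some members passed the filter only through the group in which they are bright, so these counts describe the members and support nothing further.

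**Figure D1:**
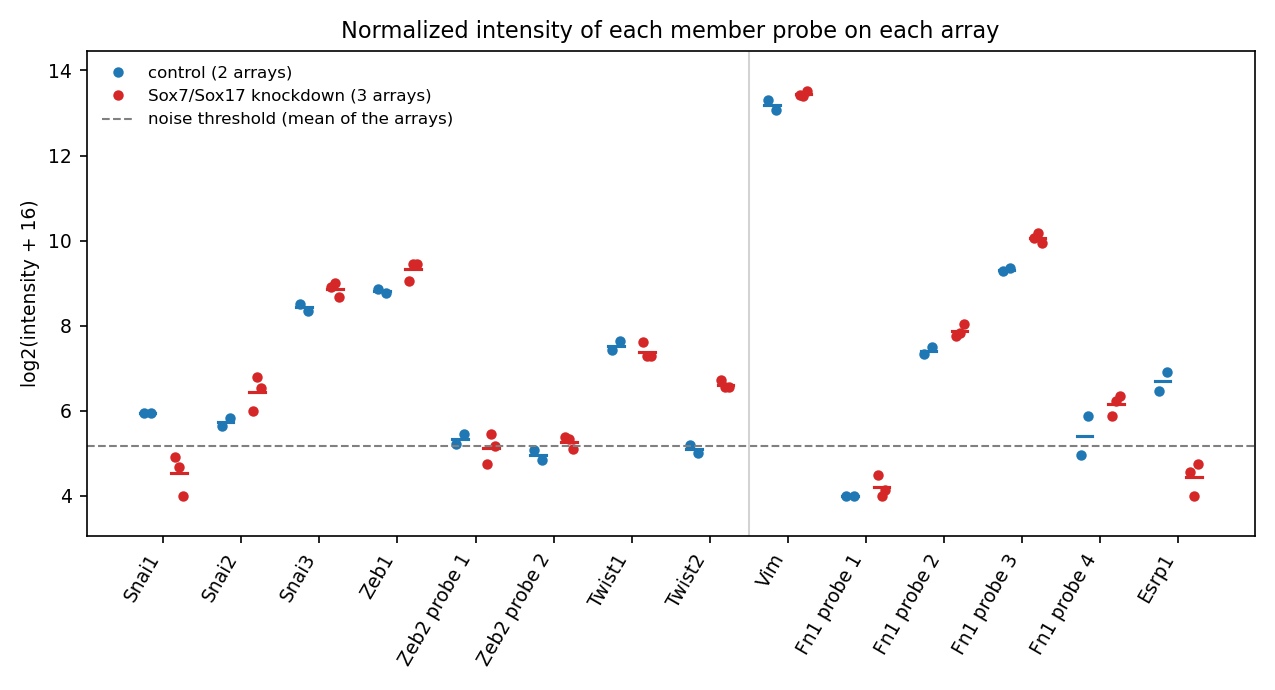
Normalized intensity of the 14 member probes on each array, as log2(intensity + 16), with values below 0 set to 0. Points are arrays, short bars are group means, the dashed line is the noise threshold, and the grey vertical line separates transition factors from readouts. Snai1 and Esrp1 lie above the threshold on both control arrays and under it on all 3 knockdown arrays, and Twist2 goes from the threshold to well above it.

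Of the 3 Snail genes only Snai1 was called. It is the family member tied to the first steps of transition. Its probe, ILMN_1241355, read 46.0 and 45.4 intensity units on the control arrays and 14.2, 9.45 and -4.44 on the knockdown arrays. Both control arrays were thus above the noise threshold and all 3 knockdown arrays under it, with no overlap. Snai1 fell by 1.42 (SE 0.264, 95% interval -2.06 to -0.77, limma adjusted p = 0.019), at least 2.27-fold lower when the knockdown arrays are set no lower than the threshold. Leaving out either control array ended the call, with adjusted p = 0.097 for replicate 1 and adjusted p = 0.11 for replicate 2. It was lost as well with an offset of 1 in place of 16 (difference -3.11, adjusted p = 0.18) and with no filter on dim probes (adjusted p = 0.14).

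Snai2, known as Slug and prominent in migrating neural crest, read 33.8 and 40.9 on the control arrays and 47.1, 95.1 and 77.0 on the knockdown arrays. Every knockdown array was above both control arrays, but knockdown replicate 1 lay close to them. The difference was 0.70 (SE 0.241, 95% interval 0.12 to 1.29, limma adjusted p = 0.10), which was not called. Without knockdown replicate 1 it was 0.93 and passed (adjusted p = 0.025). It also passed with an offset of 64 (adjusted p = 0.046) and with a variance that follows intensity (adjusted p = 0.042).

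Snai3, the third vertebrate Snail gene, read 350 and 308 on the control arrays and 461, 496 and 393 on the knockdown arrays. The groups did not overlap, and the difference of 0.43 (SE 0.133, 95% interval 0.11 to 0.75, limma adjusted p = 0.080) was not called. It passed with an offset of 64 (adjusted p = 0.027), with only probes above noise on all arrays (adjusted p = 0.046) and with a variance that follows intensity (adjusted p = 0.020).

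The Zeb genes encode large repressors that bind paired E-boxes through zinc finger clusters at both ends of the protein. Zeb1 read 445 and 417 on the control arrays and 515, 684 and 688 on the knockdown arrays. All knockdown arrays were above the control arrays, with knockdown replicate 1 nearest to them. The difference of 0.52 (SE 0.153, 95% interval 0.14 to 0.89, limma adjusted p = 0.072) was not called. Without knockdown replicate 1 it was 0.65 and passed (adjusted p = 0.030), and it passed as well with an offset of 64 (adjusted p = 0.017), with only probes above noise on all arrays (adjusted p = 0.039) and with a variance that follows intensity (adjusted p = 0.010).

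Zeb2 was near noise at both of its probes. The first, ILMN_1232121, read 20.9 and 27.7 on the control arrays and 10.8, 27.9 and 20.0 on the knockdown arrays, with overlapping groups. The second, ILMN_2419650, read 17.5 and 12.4 on the control arrays, both under the threshold, and 25.5, 24.3 and 18.0 on the knockdown arrays, 2 of them above it. The differences had opposite signs, -0.20 (95% interval -0.73 to 0.33, limma adjusted p = 0.57) and 0.32 (95% interval -0.01 to 0.65, limma adjusted p = 0.17). Neither was called, so no direction can be given for Zeb2.

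The Twist genes encode close bHLH paralogs with roles in mesoderm and in bone and skin progenitors. Twist2 was called and Twist1 was not. The probe of Twist2, also called Dermo1, ILMN_2431951, read 20.3 and 16.3 on the control arrays and 89.2, 78.4 and 78.2 on the knockdown arrays. Only control replicate 1 was above the noise threshold among the controls, and it barely was. All knockdown arrays stood far above it. Twist2 rose by 1.51 (SE 0.111, 95% interval 1.24 to 1.78, limma adjusted p = 0.0013) on the log2(intensity + 16) scale, which understates the change of a gene this dim in the controls. No array was needed for the call, whose adjusted p was at most 0.017 with any of them left out. With an offset of 1 the difference was 2.11 and with an offset of 64 it was 0.83.

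Twist1 read 155 and 183 on the control arrays and 179, 139 and 139 on the knockdown arrays. The groups overlapped, because knockdown replicate 1 fell between the controls. The difference was -0.14 (SE 0.146, 95% interval -0.49 to 0.22, limma adjusted p = 0.56) and was not called under any alternative. The interval includes falls and rises but not a rise of the size seen at the Twist2 probe.

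The promoters of the called factors Snai1 and Twist2, and of Twist1 as the paralog of Twist2, are shown as those of the 2 factors that changed and of the paralog that was not called. Each line gives the 250 bases before the start site from RefSeq (GRCm38.p6), 5′ to 3′ on the plus strand, with matches in capitals.
Snai1, chr2:167537945-167538194: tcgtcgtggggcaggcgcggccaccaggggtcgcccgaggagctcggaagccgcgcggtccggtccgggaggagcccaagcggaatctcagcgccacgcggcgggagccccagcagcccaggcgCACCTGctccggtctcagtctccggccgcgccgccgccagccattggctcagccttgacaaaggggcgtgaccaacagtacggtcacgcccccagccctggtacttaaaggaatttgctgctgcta
Twist2, chr1:91801211-91801460: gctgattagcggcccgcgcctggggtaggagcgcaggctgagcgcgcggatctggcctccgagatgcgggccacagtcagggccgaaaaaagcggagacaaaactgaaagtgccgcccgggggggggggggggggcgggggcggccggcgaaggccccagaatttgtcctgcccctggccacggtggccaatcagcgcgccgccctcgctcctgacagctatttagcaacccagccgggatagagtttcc
Twist1, chr12:33957421-33957670: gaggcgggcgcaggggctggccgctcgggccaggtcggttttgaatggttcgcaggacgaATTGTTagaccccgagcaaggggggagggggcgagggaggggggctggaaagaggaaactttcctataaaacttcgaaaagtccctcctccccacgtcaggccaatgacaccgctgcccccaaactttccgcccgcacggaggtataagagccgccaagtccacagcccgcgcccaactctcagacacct
The letters searched, on both strands, were the E-box CANNTG, the form CACCTG (or CAGGTG) that Snail and Zeb proteins prefer and that is itself a CANNTG match, and the Sox core AACAAT (or ATTGTT). The Snai1 window holds 1 CACCTG, which starts 126 bases before the start site, and no Sox core. The Twist1 window holds 1 ATTGTT, which starts 190 bases before the start site, and no E-box. The Twist2 window holds neither. Of 32851 windows of this length, 17.2% hold CACCTG or CAGGTG, 66.2% hold any CANNTG and 9.42% hold the Sox core. These matches describe the letters in this window and say nothing about binding.

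Within each array, the ratio of family members was used to set paralogs against each other. The log2 ratio of Snai1 to Snai2 was 0.31 and 0.11 on the control arrays and -1.06, -2.13 and -2.54 on the knockdown arrays, a difference of -2.12. That of Snai1 to Snai3 differed by -1.85 and that of Twist1 to Twist2 by -1.65, and in each the groups did not overlap. Zeb1 over the first Zeb2 probe differed by 0.72 without overlap, but over the second Zeb2 probe by 0.20 with overlap, a ratio added after the values were seen. Snai2 over Snai3 differed by 0.27, with overlap too. In an exact two-sided permutation test over the arrays, p was 0.1 for each of the 4 ratios without overlap, 0.5 for Zeb1 over the second Zeb2 probe and 0.6 for Snai2 over Snai3. The 10 ways to split the arrays allow no p below 0.1, and after Benjamini-Hochberg adjustment over the 6 ratios the 4 values became 0.15. The test could therefore not establish a difference between paralogs whatever the values, and nothing is concluded from it. The ratios with Snai1 rest on knockdown values under the noise threshold and depend on the offset of 16. That of Twist1 to Twist2 rests on Twist2 control values near the threshold, and those with Zeb2 on values near it in both groups.

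**Figure D2:**
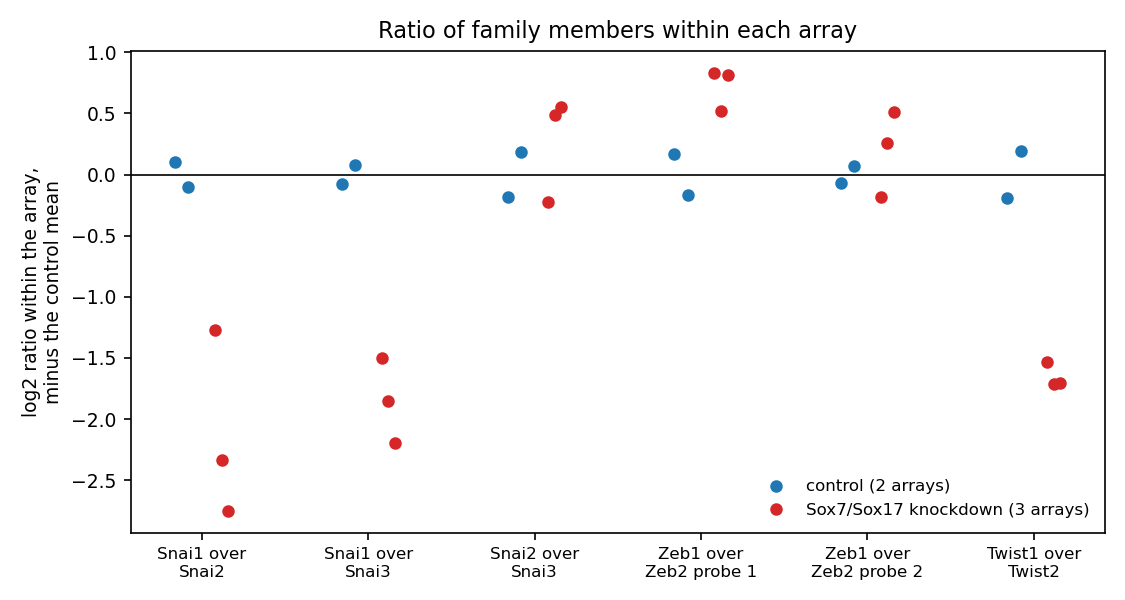
Log2 ratio of 2 family members within each array, shifted so that the control mean is 0 (vertical axis), for 6 ratios of paralogs, Zeb1 being set against each Zeb2 probe; points are arrays. The ratios of Snai1 to Snai2, Snai1 to Snai3 and Twist1 to Twist2 are lower on all 3 knockdown arrays than on both control arrays, with differences of -2.12, -1.85 and -1.65.

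Among the readouts, Esrp1 and 1 probe of Fn1 were called. Esrp1 keeps the splicing of many transcripts in the epithelial pattern. Its probe, ILMN_2609377, read 72.3 and 105 on the control arrays and 7.64, -3.02 and 10.8 on the knockdown arrays. The knockdown arrays were all under the noise threshold and the control arrays well above it. Esrp1 fell by 2.25 (SE 0.251, 95% interval -2.87 to -1.64, limma adjusted p = 0.0042), at least 4.32-fold lower. Leaving out any array kept the call (adjusted p up to 0.038). It was lost with an offset of 1 (difference -4.23, adjusted p = 0.083) and with no filter on dim probes (adjusted p = 0.064).

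Fn1 has 4 probes, and the 3 that were tested all had a higher mean in knockdown cells. Probe ILMN_2595714 read 604 and 636 on the control arrays and 1055, 1134 and 975 on the knockdown arrays, which do not overlap. It rose by 0.75 (SE 0.107, 95% interval 0.49 to 1.01, limma adjusted p = 0.0090), 1.68-fold on the log2(intensity + 16) scale. Leaving out either control array ended the call, with adjusted p = 0.062 for replicate 1 and adjusted p = 0.057 for replicate 2.

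Probe ILMN_2588227 of Fn1 read 146 and 163 on the control arrays and 200, 210 and 247 on the knockdown arrays. Its difference of 0.46 (95% interval 0.16 to 0.76, limma adjusted p = 0.056) was not called although the groups did not overlap. It passed with an offset of 64 (adjusted p = 0.023), with only probes above noise on all arrays (adjusted p = 0.030), with a 98% noise quantile (adjusted p = 0.046) and with a variance that follows intensity (adjusted p = 0.024). Probe ILMN_2646618 read 15.0 and 42.6 on the control arrays and 42.3, 59.1 and 65.9 on the knockdown arrays. Its groups overlapped narrowly, and the difference of 0.74 (95% interval 0.03 to 1.44, limma adjusted p = 0.14) was not called. Probe ILMN_1260125 was under the noise threshold on all 5 arrays, between -17.3 and 6.28, and was not tested. The position of each probe along the Fn1 transcript was not used here.

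Vim, the mesenchymal intermediate filament gene, read 10135 and 8527 on the control arrays and 11059, 10760 and 11671 on the knockdown arrays. The groups did not overlap, but control replicate 1 was close to knockdown replicate 2. The difference of 0.26 (SE 0.115, 95% interval -0.02 to 0.54, limma adjusted p = 0.18) was not called, and it passed only with a variance that follows intensity (adjusted p = 0.031) among the alternatives. The interval allows a rise of up to 0.54.

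**Figure D3:**
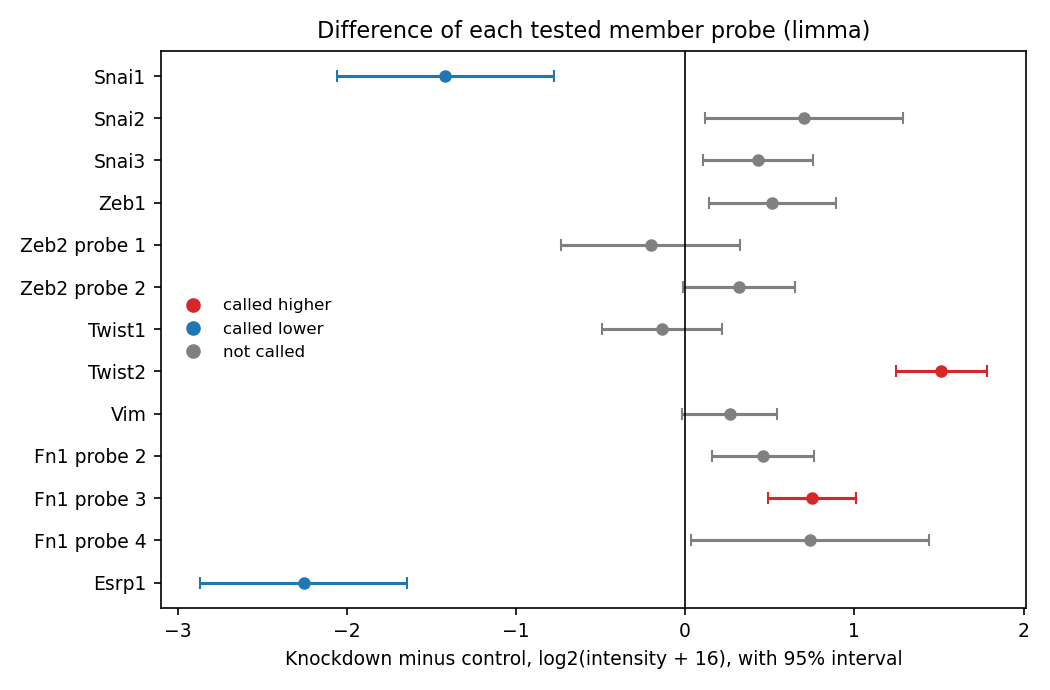
Difference between knockdown and control of the 13 tested member probes on the log2(intensity + 16) scale (horizontal axis), with 95% intervals from limma. Zeb2 probe 1 is ILMN_1232121 and probe 2 is ILMN_2419650; Fn1 probes 2, 3 and 4 are ILMN_2588227, ILMN_2595714 and ILMN_2646618. Snai1 (-1.42) and Esrp1 (-2.25) were called lower, Twist2 (1.51) and Fn1 probe 3 (0.75) higher, and the other 9 were not called.

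Genes that act around these factors were then counted in 9 lists, at the brightest tested probe of each gene, where 17.0% of all 9685 tested genes were called (8.99% higher and 7.97% lower). Some listed genes, such as Lox and Scx, passed the filter only through the group in which they are bright. The counts and medians below therefore describe the lists and support nothing further. Among 11 tested transcription factor genes that can promote transition, 3 rose and 2 fell; the median was 0.14, and 0.0047 over all tested genes. Sox9, a factor of cartilage and neural crest, rose by 1.42 (SE 0.167, limma adjusted p = 0.0049), and Foxc2, a forkhead factor of mesenchyme, by 1.40 (SE 0.106, limma adjusted p = 0.0013). The homeobox gene Prrx2 rose by 1.06, and these 3 calls held with each array left out. Klf8 and Tcf7l2 fell by 0.70 and fell by 0.61, and both calls were lost without control replicate 1 or control replicate 2.

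Among 11 tested regulators that hold cells epithelial, 4 fell and 0 rose by limma, with a median of -0.27, and at an unadjusted p under 0.05 these counts were 5 and 0. The paralog of Esrp1, Esrp2, fell by 0.82 (SE 0.138, limma adjusted p = 0.014), from 89.5 and 121 on the control arrays to 54.6, 52.8 and 48.9. Both Esrp genes were thus lower in every knockdown array, although the call of Esrp2 was lost without control replicate 2 (adjusted p = 0.071). The other 3 were the forkhead endoderm genes Foxa2, which fell by 1.79, Foxa1, which fell by 0.71, and Foxa3, which fell by 0.49. Foxa2 is also among the endoderm markers given above and is not separate evidence. The list had 0 falls with no filter on dim probes and 5 with an offset of 64. Foxa2 kept its call whichever array was left out, Foxa1 lost it without either control array, and Foxa3 lost it without any array. Without control replicate 1 the list had 2 falls and without control replicate 2 it had 1. Ovol2 was not called at its brightest probe, but fell by 1.00 at another, which was called. Grhl2, a grainyhead-like activator of epithelial genes, was under the noise threshold on all arrays.

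Twist proteins pair with the E proteins encoded by Tcf3, Tcf4 and Tcf12 and compete with Id proteins for them. Of 10 tested genes on this list 3 rose and 0 fell by limma, with a median of 0.37, and at an unadjusted p under 0.05 these counts were 6 and 0. Id2, an inhibitor of E proteins, rose by 1.57 (SE 0.103, limma adjusted p = 0.00095), from 80.6 and 78.6 to 284, 247 and 271. Scx, a bHLH factor of tendon and relative of Twist, was under the noise threshold on both control arrays and at 109, 86.0 and 114 on the knockdown arrays, at least 5.08-fold higher (limma adjusted p = 0.0013). Tcf15, a bHLH factor of somites, rose by 0.58, a call that survived the loss of only 1 of the 5 arrays. Tcf3 and Tcf12 differed by 0.28 and 0.21 and were not called.

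Corepressors and other cofactors of Snail and Zeb proteins showed small differences. Of 16 tested, 4 rose and 1 fell, with a median of 0.23. The demethylase gene Kdm1a rose by 0.55, the deacetylase gene Hdac1 by 0.51 and Wtip by 0.43. Kat2b, which encodes an acetyltransferase and is not a corepressor gene, rose by 0.43, with 2 further Kat2b probes not called. The Polycomb gene Bmi1 fell by 0.60. With control replicate 1, control replicate 2, knockdown replicate 2 or knockdown replicate 3 left out, 0 genes of this list were called by limma, and between 5 and 6 had an unadjusted p under 0.05. Without knockdown replicate 1 only Bmi1 was called. Ctbp2 differed by 0.25 and was not called, and the Ctbp1 probe was under the noise threshold on all arrays. Among 11 tested genes listed for Snail protein stability, 1 rose and 1 fell, with a median of 0.10. Lox, a lysyl oxidase, was under the noise threshold on both control arrays and above it on 2 of the 3 knockdown arrays (limma adjusted p = 0.0048). Of its relatives on the list, Loxl2 differed by -0.09 and was not called, and Loxl3 was under the noise threshold on all arrays. The ubiquitin ligase gene Fbxl5 fell by 0.44, a call lost without any array.

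The epithelial readouts were split. Of 25 tested genes 5 rose and 4 fell (median 0.20). Ap1m2, a clathrin adaptor subunit of polarized epithelia, fell by 1.81 (SE 0.114, limma adjusted p = 0.00089), and its 2 other probes fell by 2.05 and fell by 2.07. Mpzl2, an epithelial adhesion gene, fell by 1.60, the protease gene Prss8 fell by 0.90 and the keratin gene Krt8 fell by 0.49. Patj was not called at its brightest probe and is not among these falls. At other probes it fell by 1.30 and fell by 1.06, both called, and at another it fell by 0.35, not called. In the other direction Spint1, a protease inhibitor gene, rose by 0.95, the junction genes F11r and Cldn4 by 0.92 and 0.81, and the desmosome gene Pkp3 by 0.51. Cdh1, E-cadherin, the classic target of Snail and Zeb repression, read 664 and 899 on the control arrays and 1060, 1078 and 963 on the knockdown arrays. The Cdh1 difference of 0.41 (SE 0.150, limma adjusted p = 0.12) was not called. The Epcam probe was under the noise threshold on all arrays. Of the calls at the brightest probes, only those of Ap1m2 and Mpzl2 survived the loss of any array. Leaving out control replicate 1 gave 2 rises and 2 falls, and leaving out control replicate 2, knockdown replicate 2 or knockdown replicate 3 gave 1 rise and 2 falls.

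The mesenchymal readouts leaned upward. Of 20 tested genes 8 rose and 1 fell (median 0.42), and 9 more with a probe were too dim to be tested. The rise of Lox, given above for Snail protein stability, is counted here again. Acta2, smooth muscle actin, rose by 2.46, from 73.8 and 82.1 to 536, 405 and 582, and the metalloprotease gene Mmp2 by 1.26. Axl, a receptor tyrosine kinase gene, rose by 1.24, which needed control replicate 2 to be called (adjusted p = 0.057 without it). Spock1, a proteoglycan gene, went against the list and fell by 2.31. Cdh2, N-cadherin, read 27.6 and 31.8 on the control arrays and 41.7, 39.6 and 48.3 on the knockdown arrays, and its difference of 0.37 was not called (SE 0.112, limma adjusted p = 0.075). Between 4 and 6 genes of the list rose with an array left out, the low being 4 in the absence of control replicate 2 and then 5 in that of knockdown replicate 3, and 1 fell in each case.

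The list of the primitive to parietal endoderm transition fell almost as a whole. Leaving aside the knocked-down pair, Snai1 and Vim, 12 of 14 tested genes fell and 1 rose (median -1.45). Pth1r, the receptor for parathyroid hormone-related protein that induces this transition, fell by 2.12 (SE 0.187, limma adjusted p = 0.0020), from 210 and 153 to 35.4, 21.6 and 30.8, and its other probe fell by 2.57. Col4a1, a basement membrane collagen gene, fell by 2.18 and Srgn, a proteoglycan gene, fell by 1.96. Itga6, a laminin receptor subunit, rose by 0.57, a call lost without any array. With an array left out, between 10 and 12 of these genes fell and 0 rose by limma, and each time 1 gene was higher at an unadjusted p under 0.05. The members of this list overlap the endoderm markers given above and are not separate evidence.

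Signalling by TGF-beta and BMP ligands can induce Snail and Zeb genes in many epithelia. The list of its genes also holds inhibitors of this signalling, and its rises are not all those of inducers. It gave 5 rises and 0 falls by limma among 12 tested, with a median of 0.21. At an unadjusted p under 0.05 the counts were the same. Bmp7 rose by 0.89 (SE 0.111, limma adjusted p = 0.0061), Tgfb3 by 0.64, Smad3 by 0.62 and Bmp4 by 0.59. Only Bmp7 kept its call with each array left out, and the list had 1 rise without control replicate 1 or control replicate 2, and 3 without knockdown replicate 2 or knockdown replicate 3.

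**Figure D4:**
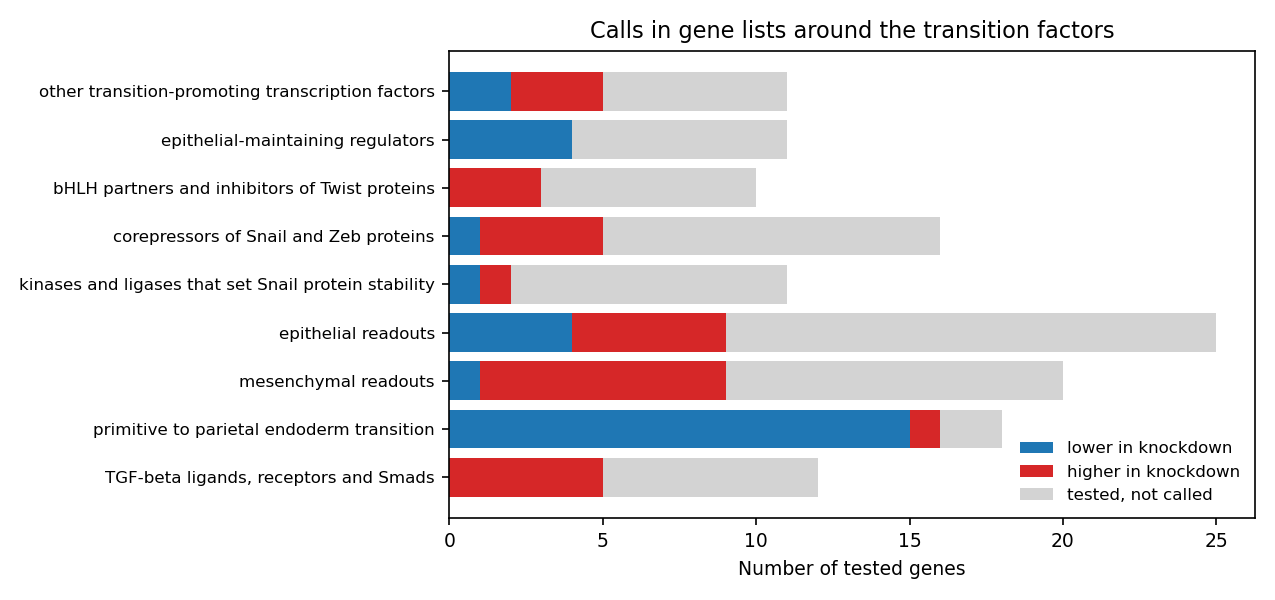
Number of tested genes (horizontal axis) called lower, called higher or not called in knockdown cells in each of 9 gene lists, at limma adjusted p under 0.05. The endoderm transition list, here with Sox7, Sox17, Snai1 and Vim included, holds 15 falls of 18, the mesenchymal readouts 8 rises of 20, and the epithelial readouts 5 rises and 4 falls of 25.

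Markers of other cell types were read beside these results, where 17.0% of all tested genes were called (8.99% higher and 7.97% lower). Only 4 fibroblast, 6 neural crest and 4 endothelial markers were bright enough to be tested. Of 10 fibroblast markers with a probe, 5 were above noise on no array (Col1a2, Col3a1, Lum, Postn and Fap), and 3 rose, namely Dcn, Thy1 and Pdgfrb. Their summed intensity was 162 to 177 on the control arrays and 295 to 346 on the knockdown arrays. Dcn kept its call with each array left out, although its other tested probe (0.71) was not called. Thy1 and Pdgfrb, which are also on the mesenchymal list, each kept the call with only 1 of the 5 arrays left out (adjusted p up to 0.11 and 0.10). Of 7 neural crest markers 1 rose and 2 fell, and their sum was 435 to 499 on the control arrays and 314 to 383 on the knockdown arrays. Endothelial markers gave 1 fall and 0 rises among 8, with Kdr, Tek, Emcn and Tie1 above noise on no array and a sum of 1203 to 1272 against 853 to 965. Of 6 blood markers 2 were tested and 1, Laptm5, rose, and Ptprc, Hba-a1, Itgam and Cd48 were above noise on no array. The sums were 2193 to 2409 and 5278 to 5693, a rise that comes mainly from Laptm5. The part of these markers in the changes of Twist2, Fn1 and the mesenchymal readouts was not tested.

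For each called member, the 3 other tested genes with the most similar profile were taken, by the Euclidean distance between log2 values centred over the 5 arrays. Twist2 was closest to Pgam2, a muscle phosphoglycerate mutase gene (distance 0.094), the homeobox gene Hoxa4 (0.11) and Id2 (0.15), which is also on the list of Twist partners above. Snai1 was closest to Acot3, an acyl-CoA thioesterase gene (0.084), the cytokine receptor gene Osmr (0.25) and the Polycomb gene Cbx8 (0.29). Fn1 was closest to Mcl1, a survival gene of the Bcl2 family (0.082), Ccdc88b (0.10) and Insl6 (0.10). The nearest to Esrp1 were the amino acid transporter gene Slc7a9 (0.45), Spock1 (0.48) and Capn6 (0.54). On all 3 knockdown arrays Snai1, Acot3, Cbx8, Esrp1 and Slc7a9 were under the noise threshold, so the distances to Snai1 and Esrp1 rest partly on values that have no order. These distances rest on 5 arrays of 2 groups and mostly reflect the size of the difference between the groups.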

How the data were processed

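Biotinylated cRNA of 5 RNA samples was hybridized to Illumina arrays, per the labels' protocols. The values the authors deposited are normalized intensities, 1 per probe and sample, on a linear scale. Per the values themselves, background had been subtracted (29.1% to 29.2% below 0) and the arrays brought to 1 distribution (sorted values differ by at most 0.394); no source used here names the method. A second deposited table was not used, since its 10 per-sample columns match no sample's labels.

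Values below 0 were set to 0, 16 was added and log2 taken. Symbols came from the platform annotation, checked against RefSeq GRCm38.p6 by gene ID; 20984 probes have 1 symbol, 1 has several and 3628 are not listed. Knockdown was compared with control in limma 3.58.1 (R 4.3.3; lmFit and eBayes, no covariate, Benjamini-Hochberg over 13624 tested probes), a fit tested on simulated data. Tables and figures used Python 3.11.15 with pandas 2.3.3, scipy 1.17.1 and matplotlib 3.10.9. A fold given as "at least" is the mean log2 intensity of the bright group minus that of the dim group, whose arrays are set no lower than the noise threshold. The number of arrays limits the precision.

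The members and lists were chosen with earlier results of these data known. The text names every member, up to 4 called genes per list and direction by size, 11 fixed genes where probed, and the nearest profiles of called members. Single markers, Patj and Ovol2 were named after their values were seen. Promoter windows were kept for 5 of the 10 members, and member windows on the chromosome of Zeb1 were left out. Alternatives were other offsets, filters, noise quantiles, centring, variance models, array weights, a replicate block and each array left out.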

Additional observations from a re-analysis of the deposited data

How the results depend on the processing

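Of the member differences, none changed sign under any alternative that tested them. The alternative filters, noise quantile and variance models leave the differences themselves unchanged, so no sign could change there. Of 188 values under the alternatives, 165 stayed on their side of the threshold, with 15 gaining and 8 losing a call. Most of the 165 came from probes that were not called above and stayed uncalled. The 4 called member probes became 2 with an offset of 1, 8 with an offset of 64, 2 with no filter on dim probes and 9 with a variance that follows intensity, and ranged from 2 to 6 with each array left out. Twist2 was called under each of its 14 alternatives. The 2165 called probes became 979 with no filter and 3405 with the intensity trend (594 to 1460 with an array left out), the 1643 called genes became 770 and 2621 (443 to 1107), and the 57 called genes over the other pathway lists became 29 with no filter (27 to 45). The cause of these shifts was not tested. With no filter, more probes enter both the adjustment and the variance that limma shares across probes. With an array left out, fewer samples enter the fit. Replicate numbers 1 and 2 occur in both groups but nothing says that they pair the arrays, and deviations of same-numbered arrays correlated at 0.0072 and 0.073. With the replicate block, where knockdown replicate 3 has its own term and adds nothing to the difference, 1090 probes, 828 genes, 33 genes of the other lists and 4 member probes were called. The second deposited table could not be mapped to samples, so that alternative was not run. Probes near the noise threshold, as at Zeb2, on the control side of Twist2 and on the knockdown side of Snai1 and Esrp1, give no exact fold.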
